A study of Mus musculus with 9 samples.

Results

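The Mcm genes Mcm2, Mcm3, Mcm4, Mcm5, Mcm6, Mcm7 and Mcm10 encode the ring of the replicative DNA helicase and a factor that helps to start it. They were taken as every probe set of the array whose annotated gene symbol was one of these 7 names. That rule found 9 probe sets among 12422, with 2 for Mcm3, 2 for Mcm5 and 1 for each other gene. It used no measured value. Of the 9 probe sets, 8 passed the filter on low values and were tested, and the Mcm6 probe set did not.

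The RNA came from mouse prostate epithelial cells of 2 lines, one wild-type and one labelled Rb-/-, called Rb-null here. Each line was grown in RPMI-1640 medium with 5% fetal bovine serum or kept in the same medium without serum for 48 hours. The groups were wild-type serum with 3 arrays, wild-type serum-free with 2, Rb-null serum with 2 and Rb-null serum-free with 2. The labels name 1 line per genotype, so genotype cannot be told apart from other differences between them. Separate cultures are not stated for the arrays of a group, so p-values measure only the spread between arrays, which may be technical.

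The Mcm2 to Mcm7 proteins form a ring that is loaded onto DNA at replication origins during G1 phase by the origin recognition complex, Cdc6 and Cdt1. Cdc45 and the GINS complex then join the ring and turn it into the moving helicase, which unwinds DNA ahead of the polymerases. Mcm10 is not part of the ring and acts when it is switched on. Transcription of Mcm genes is known to be driven by E2F factors, which the retinoblastoma protein, the product of Rb1, holds in check in cells that are not cycling.

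The promoters are shown because E2F binding sites are the textbook route from Rb1 to these genes. RefSeq promoter windows of the assembly GRCm38.p6, from 250 bases before to 50 bases after the start of transcription, were available for 6 of the 7 genes. Mcm4 had no entry. The E2F motif was searched in its 4 forms TTTCCCGC, TTTCGCGC, TTTGCCGC and TTTGGCGC on both strands. It was found in windows of 4 member genes, Mcm3, Mcm5, Mcm6 and Mcm7, and in 2.26% of all 32851 windows. The stretches of 30 bases around the matches read as follows on the strand of the gene, with the matched bases in capitals.
Mcm3, chr1:20820265-20820294, minus strand: gGCGGGAAAacttgggaagtTTTGGCGCca
Mcm5, chr8:75109347-75109376, plus strand: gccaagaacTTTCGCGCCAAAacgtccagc
Mcm6, chr1:128359795-128359824, minus strand: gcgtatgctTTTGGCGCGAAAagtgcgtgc
Mcm6, chr1:128359734-128359763, minus strand: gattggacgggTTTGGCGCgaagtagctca
Mcm7, chr5:138172030-138172059, minus strand: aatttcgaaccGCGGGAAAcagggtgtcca
Mcm7, chr5:138171849-138171878, minus strand: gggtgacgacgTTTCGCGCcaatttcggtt

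In the Mcm5 stretch and in the first Mcm6 stretch, a match on the gene's strand overlapped a match on the opposite strand. In the Mcm3 stretch, separate matches on opposite strands lay just after the start of transcription. The Mcm7 matches lay in only 1 of the 2 Mcm7 windows of the table. The Mcm2 and Mcm10 windows did not hold these letters. The other motifs were more widespread: the CCAAT box was in windows of 6 member genes and in 37.4% of all windows, and TTTGAA, the CHR motif of cell cycle genes, was in the window of 1 member gene, Mcm2, and in 17.9% of all windows. These matches describe the sequence and were not tested against the expression values.

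Rb1, the targeted gene, had 2 probe sets, of which 1 lay under the floor of 197 on every array (44 to 78 in wild-type cells) and was not tested. The tested one had deposited intensities from 361 to 713 in wild-type cells. In Rb-null cells they were 113 and 112 with serum and 166 and 160 without, all under that floor, below which values were not told apart. Averaged over the media, Rb1 was at least 2.15-fold lower in Rb-null cells (limma, adjusted p = 0.000923). The 10 epithelial markers on the array lay above the floor on every array. Krt8 read 7877 to 10863 and Trp63 318 to 384, while Krt14, at 200 to 239, lay close to the floor. Of 4 leukocyte markers, Ptprc lay below it on every array, Cd68 and Itgam above it on every array (289 to 617) and Cd3g above it on 6. Of 4 endothelial markers, Tek lay below it, Kdr and Pecam1 above it (392 to 786) and Cdh5 above it on 4 arrays. Of 4 smooth muscle markers, Acta2, Myh11 and Cnn1 lay below it and Des above it (618 to 797). All 4 fibroblast markers lay above it on every array, with summed intensities of 2593 to 3308 in wild-type serum, 3082 to 3181 in wild-type serum-free medium, 2837 to 2992 in Rb-null serum and 2761 to 2884 in Rb-null serum-free medium. Array medians of deposited intensity lay between 445 and 474, and precision is limited by how few arrays each group has. One array stood apart: wild-type serum 1 had rank correlations of 0.986 and 0.983 with the other wild-type serum arrays, while all other pairs within a group had 0.994 to 0.998. Wild-type serum 1 lay nearer to the Rb-null serum arrays than to its own group for 7 of the 8 tested Mcm probe sets, all except the second Mcm3 probe set, so counts that change without it are given both ways. Whether groups overlap is judged on the normalized values throughout, and the printed values are the deposited ones.

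**Figure D1:**
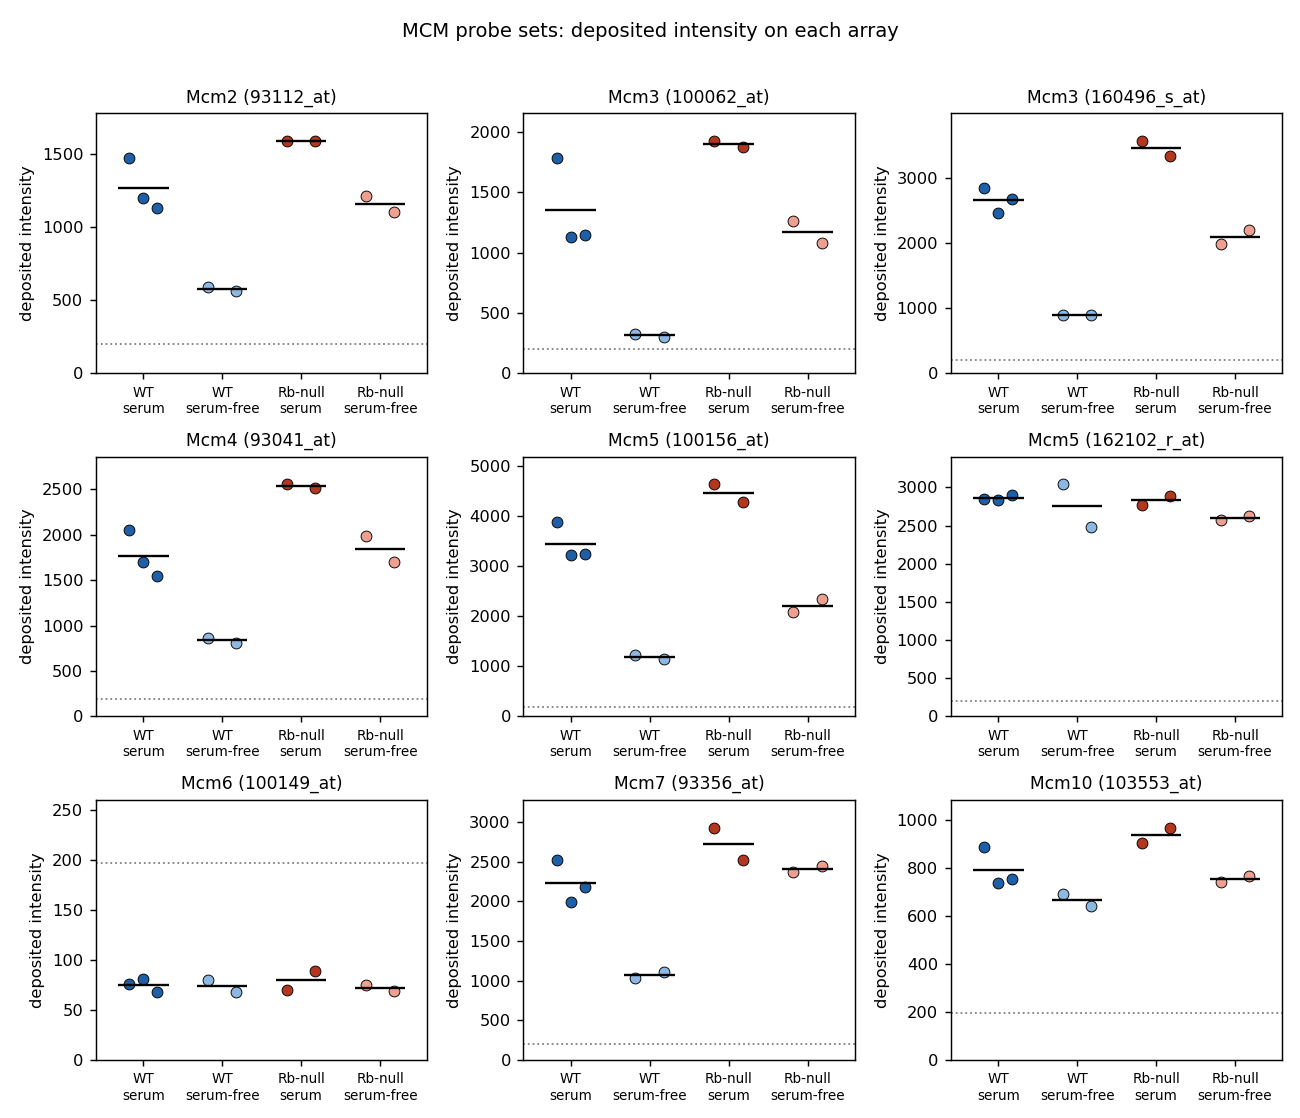
Deposited intensity (vertical axes, linear, from 0) of the 9 Mcm probe sets on each of the 9 arrays, by group. Points are arrays, horizontal bars are group means, panel titles give the probe sets, and the dotted line is the floor of 197. For Mcm2, Mcm3, Mcm4, Mcm7 and the first Mcm5 probe set the wild-type serum-free arrays are the lowest, while the Mcm6 values stay between 68 and 89 in all groups.

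Serum withdrawal lowered most of the Mcm ring genes in the wild-type line. Mcm3 had the lowest log2 differences, -2.08 and -1.51 by its 2 probe sets, followed by Mcm5 at -1.44, Mcm2 at -1.09, Mcm4 at -1.03 and Mcm7 at -0.97. Thus 6 of 8 tested probe sets, for 5 genes, were called lower at an adjusted p under 0.05, against 9.25% of all 9686 probe sets. The median difference was -1.06 over the tested Mcm probe sets and 0.05 over all probe sets. In these bulk samples, fewer cycling cells and less Mcm RNA per cell cannot be told apart.

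Mcm4 and Mcm7 form, with Mcm6, a subcomplex of the ring that can unwind DNA on its own. The Mcm4 probe set had deposited intensities of 2052, 1698 and 1549 in wild-type serum and 869 and 806 in wild-type serum-free medium. The Mcm7 probe set read 2526, 1992 and 2177 in wild-type serum and 1038 and 1111 in wild-type serum-free medium. For both genes the serum-free arrays lay well below all serum arrays, with no overlap. The drop was 2.05-fold for Mcm4 (log2 difference -1.03, SE 0.10, adjusted p = 0.00013) and 1.96-fold for Mcm7 (log2 difference -0.97, SE 0.09, adjusted p = 0.00013). The Mcm6 probe set read 76, 81 and 68 in wild-type serum, 80 and 68 in wild-type serum-free medium, 70 and 89 in Rb-null serum and 75 and 69 in Rb-null serum-free medium. All 9 Mcm6 values were under the floor, so this probe set gave no level for Mcm6 and was left out of all tests.

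Mcm2, Mcm3 and Mcm5 make up the rest of the ring, and the opening between Mcm2 and Mcm5 is the gate through which DNA enters. The Mcm2 probe set read 1469, 1201 and 1127 in wild-type serum and 589 and 565 in wild-type serum-free medium. All serum arrays were above both serum-free arrays, a 2.13-fold drop (log2 difference -1.09, SE 0.09, adjusted p = 6.77e-05). The first Mcm3 probe set, with the plain suffix _at, read 1784, 1125 and 1145 in wild-type serum and 328 and 303 in wild-type serum-free medium. Its serum-free arrays were the nearest to the floor of any tested Mcm probe set, and its 4.23-fold drop (log2 difference -2.08, SE 0.16, adjusted p = 3.84e-05) ranked 16 from the lowest of 9686. The second Mcm3 probe set, whose suffix s_at marks probes that can match more than 1 transcript, read 2844, 2466 and 2675 in wild-type serum and 895 and 900 in wild-type serum-free medium. This gave a smaller drop, 2.85-fold (log2 difference -1.51, SE 0.08, adjusted p = 5.6e-06), of the same direction.

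Mcm5 was read by 2 probe sets that disagreed. The first, with the suffix _at, read 3876, 3231 and 3256 in wild-type serum and 1231 and 1142 in wild-type serum-free medium, a 2.72-fold drop (log2 difference -1.44, SE 0.09, adjusted p = 1.03e-05). The second, whose suffix r_at marks probes chosen under relaxed design rules, read 2849, 2837 and 2904 in wild-type serum and 3040 and 2487 in wild-type serum-free medium. Its serum-free arrays lay on either side of the serum arrays (log2 difference 0.07, SE 0.09, adjusted p = 0.681), and the sign of this difference turned with the values as deposited and with a common median. Mcm5 statements therefore rest on 1 of its 2 probe sets.

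Mcm10, which acts when the loaded ring is switched on, did not pass. Its probe set read 890, 737 and 754 in wild-type serum and 692 and 643 in wild-type serum-free medium. The serum-free arrays were below the serum arrays without overlap, but the log2 difference of -0.18 (SE 0.10, adjusted p = 0.281) did not pass. Its 95% interval ran from -0.40 to 0.04, below the size of the drop of every ring gene that was called. Counting groups that did not overlap, 7 of 8 Mcm probe sets were lower in wild-type serum-free medium, against 19.2% of all probe sets. The 6 called probe sets passed with any 1 array left out. Without wild-type serum 1 those 6 differences ran from -1.89 for the first Mcm3 probe set to -0.92 for Mcm7, and Mcm10 had -0.11 (adjusted p = 0.44).

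In the Rb-null line, serum withdrawal lowered Mcm2, Mcm3, Mcm4 and Mcm5, and Mcm7 did not pass. By 5 called probe sets for these 4 genes the drops were 1.34-fold to 1.90-fold. The share of all probe sets called lower was 6.42%. The median difference was -0.42 over the tested Mcm probe sets and 0.00 over all probe sets.

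The Rb-null values of the helicase core were as follows. Mcm4 read 2555 and 2519 in Rb-null serum and 1991 and 1698 in Rb-null serum-free medium, a log2 difference of -0.42 (SE 0.11, adjusted p = 0.0289). Mcm7 read 2930 and 2517 in Rb-null serum and 2365 and 2442 in Rb-null serum-free medium. The Mcm7 arrays of both media overlapped after normalization, and the log2 difference was -0.11 (SE 0.10, adjusted p = 0.62), with a 95% interval from -0.33 to 0.12. A drop as large as the wild-type one lies outside that interval.

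Mcm2 read 1585 and 1587 in Rb-null serum and 1214 and 1102 in Rb-null serum-free medium, a log2 difference of -0.42 (SE 0.10, adjusted p = 0.0218). The first Mcm3 probe set read 1924 and 1872 in Rb-null serum and 1259 and 1080 in Rb-null serum-free medium, a log2 difference of -0.67 (SE 0.17, adjusted p = 0.0326). The second read 3569 and 3346 in Rb-null serum and 1979 and 2197 in Rb-null serum-free medium, a log2 difference of -0.68 (SE 0.09, adjusted p = 0.00103). In this line the 2 Mcm3 probe sets gave nearly the same difference, unlike in the wild-type line. The first Mcm5 probe set read 4637 and 4285 in Rb-null serum and 2089 and 2340 in Rb-null serum-free medium. It had the lowest difference of the Mcm probe sets in this line, -0.93 (SE 0.10, adjusted p = 0.000307). The second Mcm5 probe set read 2773 and 2889 in Rb-null serum and 2572 and 2627 in Rb-null serum-free medium (log2 difference -0.05, SE 0.10, adjusted p = 0.88).

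Mcm10 read 905 and 969 in Rb-null serum and 743 and 767 in Rb-null serum-free medium, again without overlap, and its log2 difference of -0.29 (SE 0.11, adjusted p = 0.127) did not pass. Without wild-type serum 1 it passed (-0.28, adjusted p = 0.0262). That fit called 23.6% of all probe sets in either direction for this comparison, against 13.9% with all arrays. Counting groups that did not overlap, 6 of 8 Mcm probe sets were lower, against 26.3% of all probe sets. The drops of the second Mcm3 probe set and the first Mcm5 probe set passed with any 1 array left out. The other 3 did not pass in some of these fits. Mcm2 did not pass without any 1 of the 4 Rb-null arrays. The first Mcm3 probe set did not pass without any 1 of those 4 or of the 2 wild-type serum-free arrays. Mcm4 did not pass without wild-type serum 2, either wild-type serum-free array, either Rb-null serum array or Rb-null serum-free 2. With 1 array left out, Mcm2 ran from -0.47 to -0.37, the first Mcm3 probe set from -0.75 to -0.57 and Mcm4 from -0.52 to -0.32. Leaving out an array of a group of 2 also lowered the share of all probe sets called, so such losses are not particular to the Mcm probe sets.

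The share of its serum level that each gene kept after withdrawal puts both lines on 1 scale. Mcm7 kept 51.2% in the wild-type line and 92.7% in the Rb-null line. Mcm4 kept 48.8% and 74.8%, and Mcm2 kept 47.1% and 74.5%. Mcm3 kept 23.6% and 63.0% by its first probe set and 35.1% and 62.4% by its second. Mcm5 kept 36.8% and 52.5% by its first probe set, while Mcm10 kept 88.4% and 82.0%. The second Mcm5 probe set had 105% and 96.5%. In serum-free medium the Rb-null arrays stood at 101% of the wild-type serum level for Mcm7, 95.1% for Mcm4, 90.9% for Mcm10, 85.6% for Mcm2, 82.2% and 72.2% for the Mcm3 probe sets, and 59.5% and 85.0% for the first and second Mcm5 probe sets, a description with no test.

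**Figure D2:**
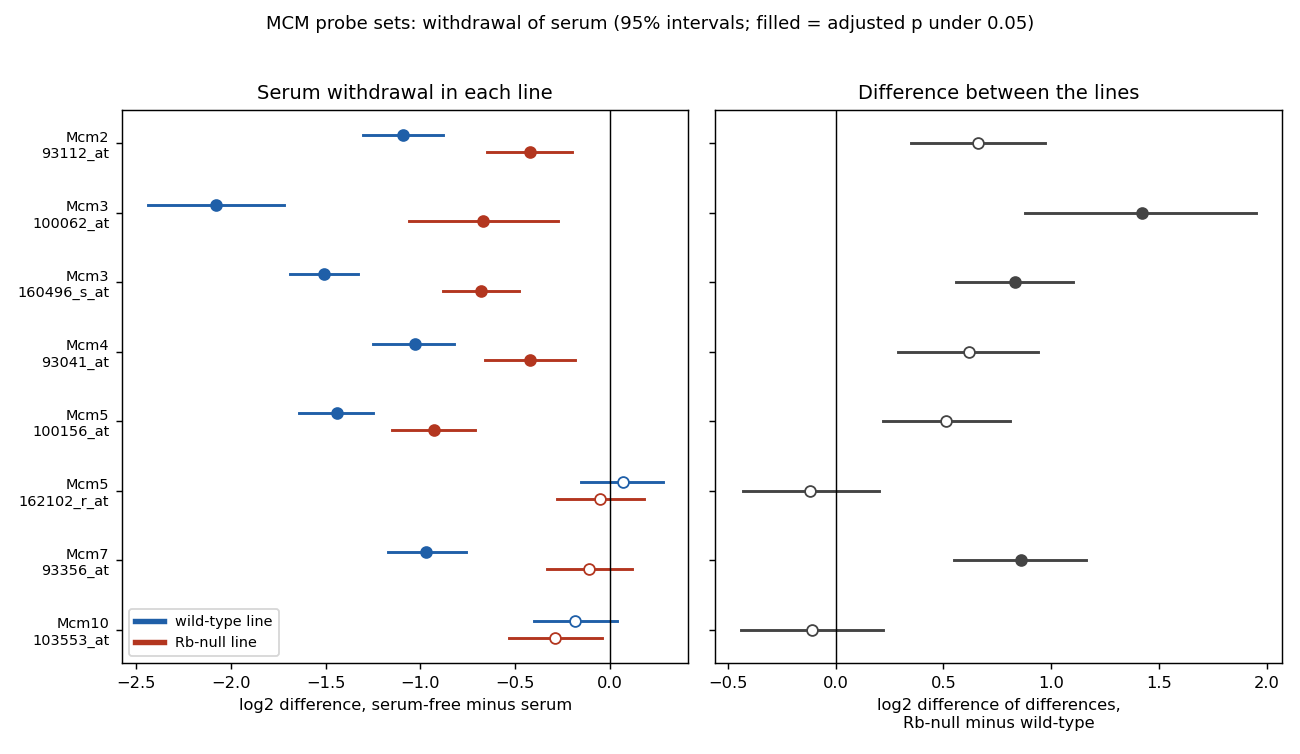
Log2 differences of the 8 tested Mcm probe sets between serum-free and serum arrays in each line (left) and the difference of those differences, Rb-null minus wild-type (right), with 95% intervals. Filled points have an adjusted p under 0.05. The drop in the wild-type line lies further from 0 than in the Rb-null line for 6 probe sets, and the right panel has 3 filled points, from 0.83 to 1.42.

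Whether withdrawal acted differently in the 2 lines was tested as an interaction, the withdrawal difference in Rb-null minus that in wild-type cells. Mcm3 and Mcm7 passed, with a smaller drop in the Rb-null line. The interaction was 1.42 (SE 0.24, adjusted p = 0.0312) and 0.83 (SE 0.12, adjusted p = 0.017) for the 2 Mcm3 probe sets and 0.86 (SE 0.14, adjusted p = 0.0228) for Mcm7. The first Mcm3 value ranked 5 from the highest of 9686. Few probe sets passed this test at all, 0.454% higher among all tested against 3 of 8 Mcm probe sets, and the medians were 0.64 over the Mcm probe sets and -0.02 over all.

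Mcm2, Mcm4 and Mcm5 had interactions of the same sign that did not pass. They were 0.66 for Mcm2 (95% interval 0.35 to 0.97, adjusted p = 0.0715), 0.62 for Mcm4 (0.29 to 0.94, adjusted p = 0.119) and 0.51 for the first Mcm5 probe set (0.22 to 0.81, adjusted p = 0.15). Mcm10 had -0.11 (95% interval -0.44 to 0.22, adjusted p = 0.784), and the second Mcm5 probe set -0.12 (adjusted p = 0.76). The interaction calls changed with single arrays left out. Without wild-type serum 1, 5 Mcm probe sets passed, adding Mcm2 (0.59, adjusted p = 0.0148) and Mcm4 (0.54, adjusted p = 0.0438), while 2.64% of all probe sets passed in either direction. The first Mcm3 probe set and Mcm7 no longer passed without any 1 of the 6 arrays outside wild-type serum, and Mcm7 also not without wild-type serum 3. The second Mcm3 probe set no longer passed without any 1 of 5 of those 6, all except Rb-null serum-free 1. With 1 array left out the values stayed between 1.23 and 1.53 and between 0.73 and 0.92 for the Mcm3 probe sets and between 0.76 and 0.94 for Mcm7. The fits without any 1 of those 6 arrays, or without wild-type serum 3, also called a smaller share of all probe sets.

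The genotype comparisons asked how far the Mcm levels differed between the lines within a medium. They use the same arrays as the withdrawal comparisons, so they restate those values from another side and are not separate support. Without serum, Mcm2, Mcm3, Mcm4, Mcm5 and Mcm7 were higher in Rb-null cells, by 6 of 8 probe sets, where 16.8% of all probe sets were called higher. The Mcm3 difference was 3.48-fold by the first probe set (log2 difference 1.80, SE 0.17, adjusted p = 0.000151), with Rb-null arrays at 1259 and 1080 against 328 and 303, and 2.06-fold by the second (1.04, SE 0.09, adjusted p = 6.31e-05). Mcm7 was 1.97-fold higher (0.98, SE 0.10, adjusted p = 2e-04) and Mcm4 1.95-fold (0.96, SE 0.11, adjusted p = 0.000318). Mcm2 was 1.82-fold higher (0.86, SE 0.10, adjusted p = 0.000426) and Mcm5 1.62-fold by its first probe set (0.69, SE 0.10, adjusted p = 0.00105).

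The arrays of these 6 probe sets did not overlap between the lines, as for 30.5% of all probe sets, and all 6 passed with any 1 array left out. The highest adjusted p among those fits was 0.0146, for Mcm5. Mcm10 did not pass (0.04, 95% interval -0.20 to 0.28, adjusted p = 0.785), nor did the second Mcm5 probe set, which lay lower in Rb-null cells without overlap, as did 43.8% of all probe sets (-0.30, adjusted p = 0.0547). Its deposited values overlapped, at 2572 and 2627 against 3040 and 2487. That Mcm5 difference passed without wild-type serum 1 (-0.30, adjusted p = 0.0232) and without wild-type serum-free 2 (-0.44, adjusted p = 0.0271), and was -0.15 without wild-type serum-free 1 (adjusted p = 0.327).

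In serum 1 Mcm gene passed. Mcm4 was 1.27-fold higher in Rb-null cells (log2 difference 0.35, SE 0.10, adjusted p = 0.0307), and it was the only one of 8 tested Mcm probe sets called, against 13.2% of all probe sets called higher. The first Mcm3 probe set (0.38, adjusted p = 0.117), the second (0.21, adjusted p = 0.0903), Mcm2 (0.20, adjusted p = 0.153) and the first Mcm5 probe set (0.18, adjusted p = 0.177) did not pass, although their Rb-null arrays lay above all wild-type serum arrays. Together with Mcm4 these made 5 of 8 Mcm probe sets without overlap, where 22.9% of all probe sets were higher without overlap. Mcm7 (0.12, adjusted p = 0.394) and Mcm10 (0.15, adjusted p = 0.312) overlapped between the lines, although the deposited Mcm10 values of 905 and 969 lay above 890, 737 and 754. The second Mcm5 probe set went the other way, lower without overlap after normalization, and did not pass (-0.18, adjusted p = 0.202). Its deposited values overlapped, at 2773 and 2889 against 2849, 2837 and 2904.

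How many Mcm probe sets passed in serum depended on wild-type serum 1. Against it alone the Rb-null serum arrays differed by 0.01 for the first Mcm3 probe set, by 0.05 for Mcm2 and by 0.02 for Mcm7. Against the other wild-type serum arrays they differed by 0.57, 0.28 and 0.17. Without wild-type serum 1, 5 of 8 Mcm probe sets passed, while 45.3% of all probe sets passed in either direction. These were Mcm2 (0.28, adjusted p = 0.00957), the first Mcm3 probe set (0.57, adjusted p = 0.000492), Mcm4 (0.42, adjusted p = 0.00277), the first Mcm5 probe set (0.23, adjusted p = 0.0386) and Mcm10 (0.22, adjusted p = 0.0445). Mcm4 no longer passed when 1 of 4 arrays was left out. It had 0.33 without wild-type serum 2 (adjusted p = 0.0884) and 0.28 without wild-type serum 3 (adjusted p = 0.0909). Those fits called 16.4% and 17% of all probe sets in either direction, against 23.6% with all arrays. Mcm4 had 0.36 without Rb-null serum 1 and 0.33 without Rb-null serum 2, and these fits also called a smaller share of all probe sets.

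**Figure D3:**
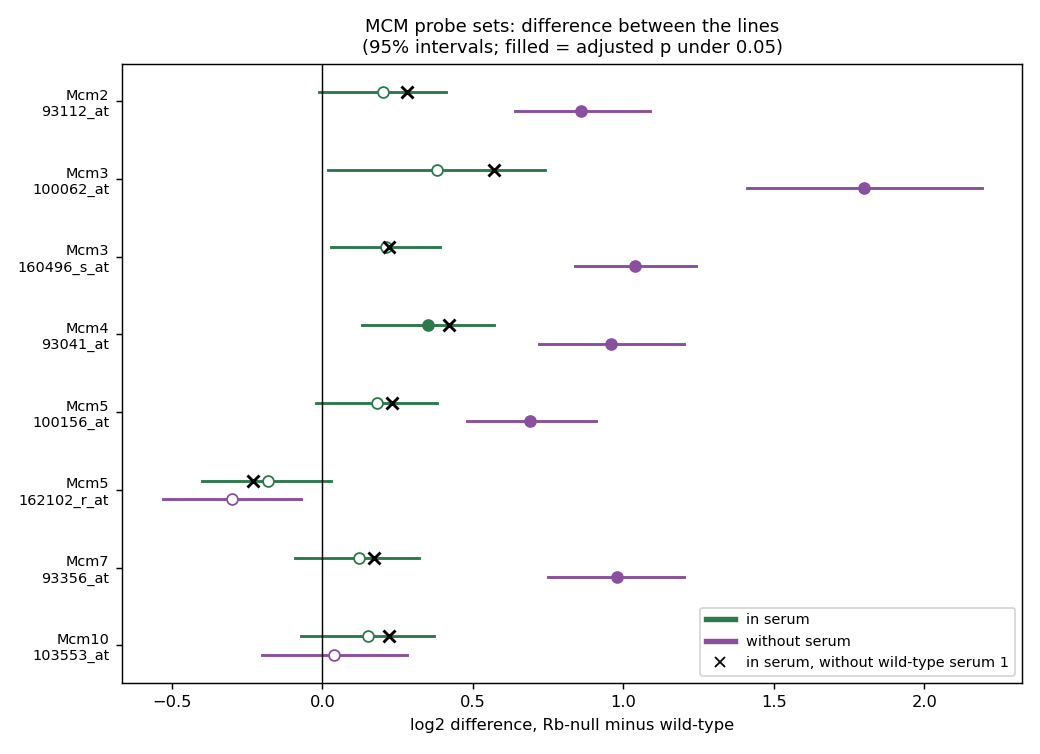
Log2 differences, Rb-null minus wild-type (horizontal axis), of the 8 tested Mcm probe sets, in serum and without serum, with 95% intervals. Filled points have an adjusted p under 0.05, and crosses give the serum difference without wild-type serum 1. Without serum 6 points are filled, between 0.69 and 1.80, and in serum 1, Mcm4 at 0.35.

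Averaged over the media with equal weight, 7 of 8 Mcm probe sets passed, against 45.2% of all probe sets. The 6 higher ones covered Mcm3 (1.09 and 0.63 by its probe sets), Mcm4 (0.65), Mcm7 (0.55), Mcm2 (0.53) and Mcm5 (0.44 by its first probe set), where 21.8% of all probe sets were called higher. The second Mcm5 probe set was lower (-0.24, SE 0.07, adjusted p = 0.0211), where 23.4% of all probe sets were called lower, but not with the values as deposited (-0.05, adjusted p = 0.573). It also did not pass without wild-type serum-free 1, Rb-null serum 1 or Rb-null serum-free 1, with a highest adjusted p of 0.0849. Mcm10 had 0.10 (SE 0.07, adjusted p = 0.306), and 0.21 with the values as deposited, which passed (adjusted p = 0.0497). Without wild-type serum 1 the same 7 probe sets passed, while 62.9% of all probe sets passed in either direction. Those 7 differences ran from -0.27 for the second Mcm5 probe set to 1.18 for the first Mcm3 probe set.

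Across the 9 arrays the tested ring genes moved together by all their probe sets except the second Mcm5 one. Pearson correlations of log2 values among the Mcm2, Mcm3, Mcm4, Mcm7 and first Mcm5 probe sets ran from 0.863 to 0.996 over 15 pairs. Mcm10 had 0.599 to 0.812 with them. The second Mcm5 probe set had -0.595 to -0.175 with the others, and -0.25 with the first Mcm5 probe set. Leaving it out of the 15 pairs was not set in advance. All points share the 4 groups, so these correlations mostly repeat the group differences and carry no test.

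The genes most like the mean Mcm2 to Mcm7 profile over the 9 arrays were taken by a rule that represented each gene by its brightest probe set, which for Mcm5 was the second one. They were Dnmt1 (r = 0.988), the maintenance DNA methyltransferase, G3bp1 (0.976), Hells (0.973), a chromatin remodelling helicase, Ewsr1 (0.971), Nasp (0.968), a histone chaperone, Npnt (0.967), Ddx21 (0.966) and Cdk2ap1 (0.964). The most opposed were Col18a1 (-0.987), Reg1 (-0.973) and Tsc22d1 (-0.971). With Mcm5 read by its first probe set, a choice made after seeing the data, Dnmt1 (0.994), Ewsr1 (0.990) and Hells (0.987) were again among the 8 most alike, and the other 5 were Tfdp1 (0.987), Usp1 (0.986), Zranb2 (0.986), Gnl3 (0.985) and Wee1 (0.984). On withdrawal the log2 difference of Dnmt1 was -0.86 in the wild-type line (adjusted p = 4.92e-05) and -0.33 in the Rb-null line (adjusted p = 0.0193), with an interaction of 0.53 (adjusted p = 0.0524). Dnmt1 is given here for its likeness over the same arrays, so these values restate that likeness and are not separate support.

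Among the partners that load the ring, most fell on withdrawal. Of 8 tested genes, among 10 listed, of origin licensing and helicase loading, 6 were lower on withdrawal in wild-type cells (median -0.55) and 6 in Rb-null cells (median -0.51), with 0 higher in either, where 9.25% and 6.42% of all probe sets were called lower. Orc2 (0.02 and 0.09) and Orc5 (-0.25 and -0.20) passed in neither line. Cdc6, which brings the ring to the origin complex, fell by 1.90 in wild-type cells (adjusted p = 7.75e-06) and fell by 2.20 in Rb-null cells (adjusted p = 6.42e-06). Its wild-type serum-free values, 197 to 201, were close to the floor, which limits the size of the wild-type drop. Gmnn, the inhibitor of Cdt1, fell by 1.47 in wild-type cells (adjusted p = 0.000226), and its log2 difference in Rb-null cells was -1.30 (adjusted p = 0.000986). Its wild-type serum-free values, 212 to 215, also lay near the floor. Orc6, a subunit of the origin recognition complex, had differences of -1.13 (adjusted p = 0.000969) and -0.74 (adjusted p = 0.0155), and the latter no longer passed without either Rb-null serum array or Rb-null serum-free 2 (highest adjusted p = 0.119). None of the 8 passed the interaction test. Between the lines, 6 of 8 were higher in Rb-null cells averaged over the media, against 21.8% of all probe sets, with Gmnn at 1.27 (adjusted p = 3.63e-05).

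Among the factors that switch the ring on and travel with the fork, 8 of 17 listed genes were tested. On withdrawal 3 fell in wild-type cells (median -0.05) and 4 in Rb-null cells (median -0.46), with 0 higher. Of all probe sets, 9.25% and 6.42% were called lower in these lines. Topbp1, a scaffold for helicase activation, had log2 differences of -1.41 in wild-type (adjusted p = 0.000241) and -0.67 in Rb-null cells (adjusted p = 0.022), and the latter no longer passed without any 1 of the 4 Rb-null arrays (highest adjusted p = 0.146). Tipin, of the fork protection complex, had -1.10 (adjusted p = 0.000263) and -0.77 (adjusted p = 0.00403), with wild-type serum-free values, 228 to 233, near the floor. Dbf4, the activator of the Cdc7 kinase that phosphorylates the ring, passed the interaction test (-1.11, adjusted p = 0.0105). Dbf4 was called lower in Rb-null cells only, by a probe set with the suffix r_at. All its serum-free arrays lay at the floor, and its wild-type serum values, 203 to 220, lay close to it. A wild-type drop could therefore hardly be read. The deposited values were 53 to 72 in wild-type serum-free medium, 407 to 510 in Rb-null serum and 108 to 162 in Rb-null serum-free medium. The Dbf4 interaction depends on the floor: with floors of 334 and 93.5 it was -0.41 and -0.55 and did not pass. It also did not pass without either wild-type serum-free array or Rb-null serum-free 2 (highest adjusted p = 0.104).

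The next list held the enzymes that copy DNA behind the helicase. Of 18 tested genes of fork synthesis, 14 were lower on withdrawal in wild-type cells (median -0.62) and 10 in Rb-null cells (median -0.37). The shares of all probe sets called lower were 9.25% and 6.42%. In either line 0 of the 18 were higher, and 0 passed the interaction test. In Rb-null cells the other 8, Pola1 among them (-0.31, adjusted p = 0.282), did not pass. Prim1, the catalytic primase subunit, fell by 1.40 in wild-type cells (adjusted p = 0.000141), and its difference in Rb-null cells was -0.37 (adjusted p = 0.15), with an interaction of 1.03 (adjusted p = 0.0524). Pola1, the catalytic subunit of polymerase alpha, fell by 1.28 in wild-type cells (adjusted p = 0.000335), and its interaction was 0.97 (adjusted p = 0.0905). The wild-type serum-free values of Prim1 (218 to 248) and Pola1 (236 on both arrays) lay near the floor, which left little room for larger wild-type drops. Pcna, the sliding clamp, fell by 1.00 in wild-type cells (adjusted p = 6.77e-05) and fell by 0.46 in Rb-null cells (adjusted p = 0.0105), with an interaction of 0.54 (adjusted p = 0.118). Fen1, which trims Okazaki fragments, had log2 differences of -1.62 (adjusted p = 2.07e-05) and -1.15 (adjusted p = 0.000336). A smaller drop in Rb-null cells was not shared by the whole list. Prim2 had -0.54 (adjusted p = 0.00469) and -0.70 (adjusted p = 0.00246), and Rfc5 -0.98 (adjusted p = 0.000166) and -0.99 (adjusted p = 0.000354). The median interaction was 0.14 over the 18 genes and -0.02 over all probe sets.

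Among 13 tested other S phase targets of E2F, 8 were lower in each line (medians -0.86 and -0.45), against 9.25% and 6.42% of all probe sets. Of these targets 0 were higher and 0 passed the interaction test. Rrm2, the small ribonucleotide reductase subunit, had log2 differences of -2.52 in wild-type (adjusted p = 1.52e-06) and -2.27 in Rb-null cells (adjusted p = 3.95e-06). Of 21 tested mitosis genes, 18 fell in each line, against the same 9.25% and 6.42% of all probe sets, with medians of -1.72 in wild-type and -1.92 in Rb-null cells. Mki67, a marker of cycling cells, had -2.58 in wild-type (adjusted p = 2.71e-06) and -2.79 in Rb-null cells (adjusted p = 3.95e-06), with an interaction of -0.21 (95% interval -0.61 to 0.19, adjusted p = 0.682). Its serum-free values, 185 to 213 and 205 to 222, lay at or near the floor, so both drops and their difference are limited by it. Birc5, a survival and chromosome segregation factor, was the 1 mitosis gene past the interaction test (-0.62, adjusted p = 0.047), with the larger drop in Rb-null cells, and it no longer passed in 8 of the 9 fits with 1 array left out, all except that without wild-type serum 1 (highest adjusted p = 0.26). The share of cycling cells was not measured, and its part in the Mcm differences was not tested.

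**Figure D4:**
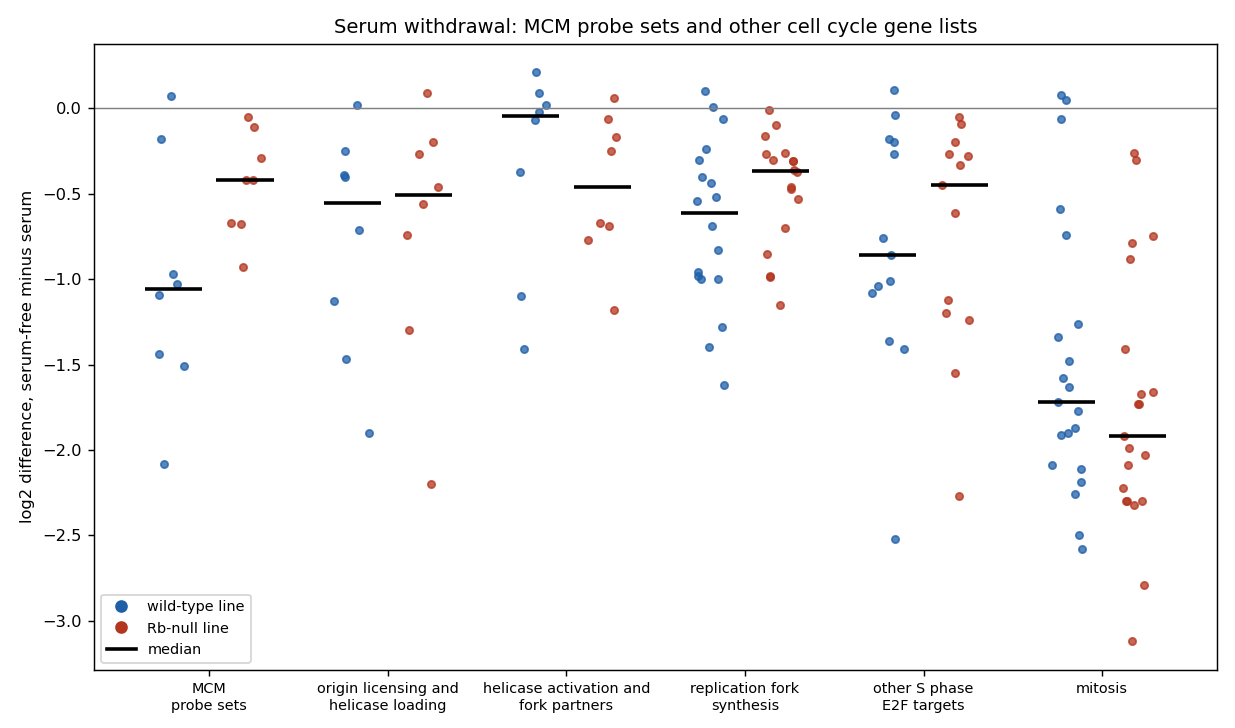
Log2 difference between serum-free and serum arrays (vertical axis) for the 8 tested Mcm probe sets and for the tested genes of 5 other cell cycle lists, in each line. Points are probe sets, 1 per gene outside the Mcm group, and bars are medians. The Mcm medians are -1.06 in wild-type and -0.42 in Rb-null cells, and the mitosis medians are -1.72 and -1.92.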

How the data were processed

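Total RNA of 9 samples was read on single-channel arrays. The authors deposited 1 linear intensity for each probe set on each array, with no detection calls. How the scanner output was summarised and scaled is not stated per the labels, so any normalization before deposit is unknown.

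The values were quantile normalized between arrays, because upper quartiles differed by 0.22 on the log2 scale, over the limit of 0.1. The upper quartiles were 1119 to 1153 on the Rb-null arrays and 990.5 to 1088 on the wild-type arrays. This step therefore also removed a difference that went with the line. Values under the floor of 197, percentile 25 of all values, were raised to it, and log2 was taken. Probe sets above the floor on at least 2 of the 9 arrays were tested, 9686 of 12422. A single limma 3.58.1 fit in R 4.3.3 held 4 group means, with the variance trended on intensity and with 5 residual and 4.2 prior degrees of freedom. All tests were two-sided, with Benjamini-Hochberg adjustment over all 9686 probe sets and a threshold of 0.05. Gene names came from the platform annotation, with 10833 probe sets named by 1 gene. Each pathway gene was read by its brightest probe set on average.

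All Mcm probe sets were named. From each pathway list and comparison, up to 4 genes with the smallest adjusted p could be named. The members, lists and motifs were chosen with earlier results of these data known. Alternatives were other scalings, floors, filters and variance models, array weights, a block for the replicate number and leaving out each array. The procedure was also run on simulated data with independent normal noise. That simulation had no floor and no deviating array, so it does not cover these features of the data.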

Additional observations from a re-analysis of the deposited data

Results flagged for a closer look

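The withdrawal response differed between the lines, by the interaction test of limma, for 3 Mcm probe sets. The difference of the log2 differences, Rb-null minus wild-type, was 1.42 for the first Mcm3 probe set (adjusted p = 0.0312), 0.83 for the second (adjusted p = 0.017) and 0.86 for Mcm7 (adjusted p = 0.0228). In each case the serum-free arrays lay below all serum arrays in the wild-type line, and the difference was smaller in the Rb-null line. These calls depended on the processing. The first Mcm3 probe set and Mcm7 did not pass with the values as deposited (adjusted p = 0.0698 and 0.056), with a common median (0.0827 and 0.0739) or without the filter (0.149 and 0.0766). The second Mcm3 probe set and Mcm7 did not pass with the replicate block (0.0519 and 0.0689). With 1 of the 9 arrays left out, the calls were lost in 6, 5 and 7 fits for the first Mcm3 probe set, the second and Mcm7. Each of these fits also called a smaller share of all probe sets.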

How the results depend on the processing

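The 9 alternatives and the 9 fits that left out 1 array kept the direction and the side of the threshold for 753 values of Mcm probe sets. They gained a call for 26, lost one for 63 and turned the sign of 6. The counts of Mcm probe sets called did not move by over 1.5 times for withdrawal in wild-type cells, for the genotype difference without serum or for the averaged one.

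In serum the count of 1 became 3 with the values as deposited, 3 with a common median, 0 without the filter, 8 with array weights, 0 with the replicate block and 0 with the arrays of the compared groups only. It ran from 0 to 5 with 1 array left out. Array weights called 57.2% of all probe sets there, against 23.6%. The values as deposited called 25% and a common median 23.7%. The fits without the filter, with the replicate block and with the compared groups only called 14.9%, 16.5% and 15.5%. For withdrawal in Rb-null cells the count of 5 became 2 with a common median and 3 without the filter, and ran from 2 to 6 with 1 array left out. For the interaction the count of 3 became 1 with the values as deposited, 1 with a common median, 1 without the filter, 6 with array weights and 1 with the replicate block, and ran from 0 to 5. Array weights called 4.1% of all probe sets there, against 0.929%. The values as deposited, a common median, no filter and the replicate block called 0.67%, 0.69%, 0.62% and 0.527% there. For withdrawal in Rb-null cells, a common median called 12.9% of all probe sets and no filter 8.49%, against 13.9%. Where leaving out an array left 1 in its group, that array was assumed to vary like the other groups. In every comparison, such fits called a smaller share of all probe sets than the fit with all arrays. Beyond these settings' own construction, the cause was not tested.

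Signs turned only for values that had not passed, apart from Cdc6. With 1 array left out, Mcm10 without serum ran from -0.01 to 0.09. For the second Mcm5 probe set, wild-type withdrawal gave -0.06 as deposited, -0.01 with a common median and -0.08 to 0.21 with 1 array left out. Its Rb-null withdrawal then ran from -0.10 to 0.00, and its interaction from -0.26 to 0.03. Cdc6 had 0.00 without serum with a floor of 334.

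The labels do not say that replicate numbers pair cultures, so the numbers were not taken as pairs. The deviations of same-numbered arrays had 12 correlations from -0.23 to 0.33. In a group of 2 arrays the deviations mirror each other, so these are not 12 separate checks. The 2 over 0.1 were both between wild-type serum and Rb-null serum-free arrays (0.33 and 0.30). Over all probe sets, the share of calls that were higher moved from 55.9% to 73.4% in serum, from 54.8% to 77.6% without serum, from 48.1% to 69.3% averaged and from 41.7% to 25.7% for wild-type withdrawal with the values as deposited.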
